A study of Mus musculus with 109 samples.

Results

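The region described here is a gene-rich block of mouse chromosome 8 around Dnase2a and Junb, chr8:83000001-90000000 in mm9. Its members are the HindIII sites whose position in the deposited table falls inside those 7 Mb, which makes 2097 sites of 39480 on chromosome 8 and of 823352 in the whole table. The study used 4C-seq on C127, a mouse mammary tumour cell line, to follow how chromatin contacts are set up in early G1, the phase after mitosis. Cultures held in mitosis for 4 h with nocodazole were collected as mitosis or released for 30 min, 1 h, 2 h, 3 h or 4 h; G2 cells came from a 15 h release and G0 cells from 5 days of serum starvation. Chromatin was fixed for 10 min with formaldehyde, cut with HindIII and ligated, then cut with DpnII, made circular, amplified with primers for 1 bait and sequenced as 50 bp reads. A 4C library therefore lists, for 1 viewpoint, the HindIII sites that had been ligated to it. All groups share the 1 cell line, nothing in the labels says which libraries of different baits came from the same culture, and synchrony itself was not measured in these files.

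In mammalian nuclei, neighbouring sequence folds into topologically associating domains, stretches whose parts meet each other more often than they meet the sequence beyond an edge. Over longer distances, active and gene-rich chromatin tends to meet other gene-rich chromatin, and gene-poor chromatin tends to meet gene-poor chromatin, which is known as compartmentalisation. During mitosis both levels are largely absent, and they are rebuilt as cells enter G1. Contact also falls with distance along a chromosome, so a distant region can be judged only against what other sequence at that distance shows.

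Bait B87 lies inside the block, in an intron of Dnase2a, the gene of a lysosomal DNase, with its HindIII site at position 87434076 on chromosome 8. It is given first because the domain and edges described further on are counted from it. The other 6 sequences are HindIII sites of the block with 20 genomic bases on each side, read from mm9. They are the site captured most often from the outer baits (near Gipc1), 2 others in the first 10 that bait B87 captured in all its libraries (Cacna1a and Vps35), and the top sites of baits B26 (near Hook2), B53 (Inpp4b) and B118 (Lonp2). Capitals mark the HindIII recognition sequence in each.
Bait B87 primer, chr8:87434064-87434081: gggcggagatggAAGCTT
Near Gipc1, chr8:86166686-86166731: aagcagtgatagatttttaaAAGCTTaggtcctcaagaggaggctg
Cacna1a intron, chr8:87150616-87150661: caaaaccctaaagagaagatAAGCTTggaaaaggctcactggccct
Vps35 intron, chr8:87790182-87790227: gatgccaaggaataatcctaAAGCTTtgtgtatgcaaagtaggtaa
Near Hook2, chr8:87511004-87511049: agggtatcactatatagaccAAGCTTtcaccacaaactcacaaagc
Inpp4b intron, chr8:84213360-84213405: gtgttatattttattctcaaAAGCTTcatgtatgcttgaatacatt
Lonp2 intron, chr8:89235062-89235107: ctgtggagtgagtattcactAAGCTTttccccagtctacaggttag

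The block was viewed from 5 baits outside it. Bait B26 sits within Whsc1l1, which encodes a histone H3 methyltransferase, in an intron; its surroundings hold 19 protein-coding genes within 500 kb on either side. Bait B118 lies 227629 bp upstream of Maf, a transcription factor gene, and has 1 gene within that distance. Baits B7 and B53 have 0 genes there, and bait B44, beside the pluripotency gene Zfp42, has 8. The near end of the block is 28.5 Mb from B118, 30.0 Mb from B53, 38.6 Mb from B44, 56.2 Mb from B26 and 75.8 Mb from B7.

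The files hold 11 libraries for each of B7, B26, B44 and B53 and 10 for each of B87 and B118, which have none of mitosis here. The 64 libraries hold 266006 to 12536212 reads, and 1018 to 24943 captured sites on chromosome 8, a captured site being one with 1 read or more. At every bait the libraries labelled 30 min replicate 2, 3 h and 4 h were sparse, with 1018 to 5781 captured sites against 3970 to 24943 in the others. No molecular identifiers mark the PCR copies of a ligation, and captured sites are therefore the main measure, with reads beside them. Replicate labels name separate samples, but p-values below measure only the spread between these libraries.

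Several libraries shared captured sites far beyond other pairs of labels. Within the block, the library labelled 1 h replicate 2 and technical replicate 1 of 2 h shared 80.5% to 98.5% of the smaller one's captured sites over the 6 baits, and 2 h is counted below as 1 library, the sum of its technical replicates. On other chromosomes a library labelled G0 also shared sites with 1 h replicate 2. At B118 this was G0 replicate 2, with 81.5% of its captured sites, 15.1 times the number that chance gives, against a median of 1.73 times over the pairs of that bait. For G0 replicate 1 the shares were 61.3% of the smaller library at B44, 50.7% at B53 and 29.4% at B26, and for G0 replicate 2 at B87 15.9%. In 4 other pairs, sharing was over 2.5 times the median of their bait. The libraries labelled 30 min replicate 2 and 3 h shared 32.0% of the smaller one's sites at B7 and 10.6% at B26, 3 h and G0 replicate 2 shared 8.74% at B7, and 1 h replicate 1 and G0 replicate 2 shared 15.4% at B53. Labelled times are therefore names of libraries in what follows, and results that rest on libraries that share sites are also given without them, here or in the closing section.

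Over its whole 7 Mb, the block's contact with each of the 5 outer baits did not differ from what distance predicts beyond the spread of libraries. The median library captured 95 sites of the block from B7, 203 from B26, 707 from B44, 980 from B53 and 1045 from B118. The expected number came from a smooth curve of captured fraction on distance, fitted to all 500-kb bins of chromosome 8 more than 2 Mb from the bait in that library. These bins included the block. For B7, B26 and B118 the chromosome holds no other sequence at the block's distances. Their expected number thus drew on the block itself and on nearby distances, which can bring the ratio nearer 0. The log2 ratio of observed to expected sites was 0.08 ± 0.20 from B26 (SD, n = 11 libraries), 0.03 ± 0.09 from B118 (n = 10), 0.01 ± 0.09 from B44, -0.05 ± 0.21 from B53 and -0.07 ± 0.20 from B7 (n = 11 each). None of the 5 passed an exact sign-flip permutation test over libraries (adjusted p = 0.498 to 0.713 over the 5 baits). Counting reads, with each library's highest values capped, gave 0.03 from B26, -0.03 from B118, -0.05 from B44, -0.13 from B53 and -0.11 from B7, also with no call. Of the 10 pairs of baits, 0 differed in this ratio at an adjusted p under 0.05 in the same test, and 0 did at an unadjusted p under 0.05; the lowest was B7 minus B26 at -0.16 ± 0.26 (n = 11, exact p = 0.0713). Over the inner 5 Mb of the block, B7 had -0.17 and B44 -0.08, both past the threshold (adjusted p = 0.0464 in the exact test), and the mean of B26 and B118 exceeded that of the other 3 baits by 0.25 (exact p = 0.0332). That split of the baits was chosen with earlier results of these data known.

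Against its surroundings the block stood apart from 2 baits, in opposite directions. Its flanks are the 7 Mb on each side, chr8:76000001-83000000 with 27 protein-coding genes and chr8:90000001-97000000 with 55, while the block has 99. From B26 the ratio was 0.08 ± 0.20 in the block and -0.25 ± 0.12 in the flanks, a difference of 0.34 ± 0.25 that was above 0 in 11 of 11 libraries (exact permutation test, adjusted p = 0.00244). From the gene-desert bait B53 it was -0.05 ± 0.21 in the block and 0.15 ± 0.06 in the flanks, a difference of -0.20 ± 0.22, below 0 in 11 of 11 libraries (adjusted p = 0.00244 in the same exact test, 0.0651 with a lowess span of 0.3). From B44 the difference was small, -0.07 ± 0.10, below 0 in 10 of 11 (exact test, adjusted p = 0.0472). That call was lost when any 1 of 9 libraries was left out and with unique sites only (adjusted p = 0.114). B7 and B118 had -0.03 ± 0.31 and -0.005 ± 0.17 and did not pass, but B118 did with the same expected number for every bin at a distance (-0.15, adjusted p = 0.0391 in the exact test). Without the libraries that share sites and both labelled G0, B26 had 0.43 ± 0.27 and B53 -0.28 ± 0.25 (n = 7 each, exact test, adjusted p = 0.0391 for both).

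Other gene-rich stretches of the chromosome gave a second yardstick. The window chr8:72000001-75000000, with Upf1, a nonsense-mediated decay helicase gene, has 119 protein-coding genes, and chr8:107000001-110000000, with Ctcf, the gene of the boundary protein CTCF, has 96. The block was met more than the Upf1 window from B7, B53 and B44: by 0.60 ± 0.58 from B7 (10 of 11 libraries), 0.57 ± 0.43 from B53 and 0.47 ± 0.45 from B44 (11 of 11 each; exact permutation tests, adjusted p = 0.00244 to 0.00488). From B26 this difference was -0.20 ± 0.44 and from B118 0.18 ± 0.24, neither past the threshold. The B118 difference did pass in the exact test with capped reads (0.41, adjusted p = 0.00488), with the same expected number for every bin at a distance (0.41, adjusted p = 0.00488) and under 4 other settings (0.20 to 0.41), as well as when 3 h or 4 h was left out (0.23 and 0.22). Against the Ctcf window the block was lower from B26, -0.42 ± 0.13 (below 0 in 11 of 11, adjusted p = 0.00488), and higher from B53, 0.36 ± 0.33 (9 of 11, adjusted p = 0.0293; exact tests). The B53 call was lost when any 1 of 4 libraries was left out and without the 1 h replicate 1 and G0 replicate 2 libraries (0.37, adjusted p = 0.0684), and without the libraries that share sites and both labelled G0 neither passed (-0.41, adjusted p = 0.0781, and 0.40, adjusted p = 0.156, exact tests). Repeated sequence lowers capture and was unequal, since both ends of 125 of the 784 sites of the Upf1 window occur elsewhere among HindIII ends, against 150 of 2097 in the block and 50 of 891 in the Ctcf window. With unique sites only, the B26 difference from the Upf1 window became -0.32 (adjusted p = 0.0427 in the exact test), and those of B7, B53 and B44 were 0.49, 0.43 and 0.37 and still passed. The B118 difference shrank to 0.07 with unique sites (adjusted p = 0.373 in the exact test). It was -0.04 over sites captured in any library.

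**Figure D1:**
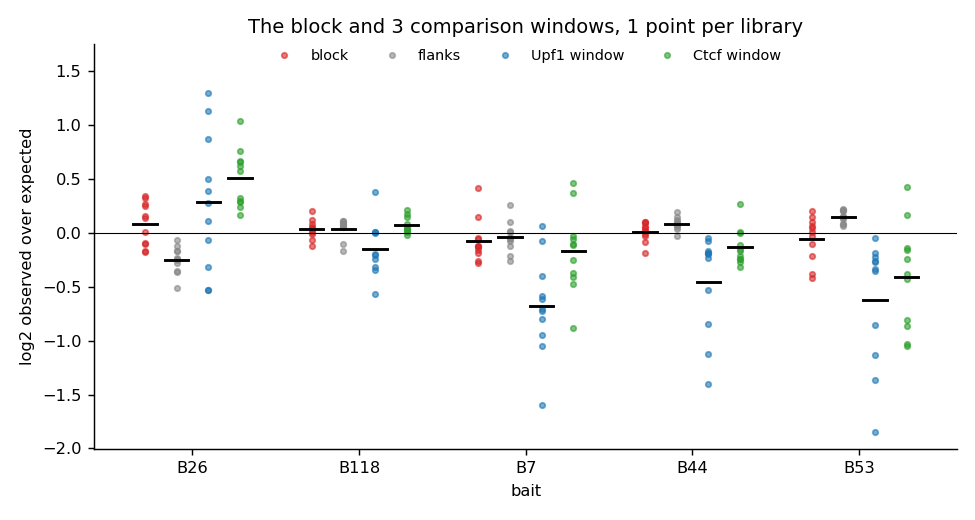
Log2 of observed over distance-expected captured sites (y axis) for the block, its flanks, the Upf1 window and the Ctcf window from each of 5 baits (x axis), 1 point per library, with the mean as a black line. From B26 the block (mean 0.08) lies above its flanks (-0.25) and below the Ctcf window (0.51), while from B53 it lies below its flanks (0.15) and above the Upf1 window (-0.63).

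The block is not uniform, and its middle carries most of its genes. Of its 14 bins of 500 kb, the 4 from chr8:86000001-88000000 hold 10 or more protein-coding genes each, 69 in all, with a GC content of 47.7% and 482 HindIII sites. The other 10 bins have a GC content of 41.7% and 1615 sites. The gene count that defines gene-rich bins was set with earlier results known, and the comparison of these bins with the rest of the block was added after the bins had been seen.

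Seen from B26, the gene-rich middle was met more than the rest of the block. The ratio was 0.66 ± 0.59 in the gene-rich bins and -0.19 ± 0.17 in the rest, a difference of 0.86 ± 0.67 (above 0 in 10 of 11 libraries, exact permutation test, adjusted p = 0.0130). By library the difference was 0.70 in mitosis, 0.79 and 1.08 at 30 min, 0.76 and 0.85 at 1 h, 0.75 at 2 h, 1.84 at 3 h, 2.19 at 4 h, 0.49 in G2, and 0.08 and -0.10 in G0. The 2 libraries labelled G0 were thus near 0, and the 2 highest values came from the labels 3 h and 4 h, which are sparse.

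Seen from B53 and B44, the middle was met less than the rest. From B53 the ratio was -0.58 ± 0.91 in the gene-rich bins and 0.04 ± 0.12 in the rest, a difference of -0.62 ± 0.83, below 0 in 8 of 11 libraries (exact permutation test, adjusted p = 0.0130). The 3 sparse libraries ranged from -2.60 to -1.29 there, the 3 h library resting on 5 captured sites in the gene-rich bins, and both G0 libraries were near 0 (0.01 and 0.02). From B44 the difference was -0.31 ± 0.41, below 0 in 9 of 11 (adjusted p = 0.0130 in the exact test), with -0.88 at 3 h and -1.28 at 4 h as the lowest values. When libraries were thinned to equal numbers of captured sites, the B44 call was lost (-0.27, adjusted p = 0.0745 in the exact test). B7 had -0.26 ± 0.60 and B118 0.02 ± 0.12, and neither passed, but B7 did after thinning (-0.61, adjusted p = 0.0195 in the exact test). With capped reads B118 turned to -0.22 (adjusted p = 0.0293 in the exact test), while B26 kept 0.70. With the same expected number for every bin at a distance, whatever its number of HindIII sites, B26 had 0.43 and no longer passed (adjusted p = 0.0518 in the exact test), B7 had -0.68 and passed (adjusted p = 0.00732), and B118 turned to -0.40 (adjusted p = 0.00326).

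The opposite directions were tested directly, by pairing libraries of the same label. Of 10 pairs of baits, 6 differed at an adjusted p under 0.05. B26 exceeded B53 by 1.47 ± 1.43 (10 of 11 labels), B44 by 1.17 ± 1.04 (11 of 11) and B118 by 0.85 ± 0.75 (9 of 10), and B7 minus B26 was -1.12 ± 1.11 (below 0 in 9 of 11; exact permutation tests, adjusted p = 0.00977 to 0.0117). B53 minus B118 was -0.68 ± 0.90 (below 0 in 10 of 10) and B44 minus B118 -0.35 ± 0.40 (below 0 in 9 of 10; exact tests, adjusted p = 0.00977 and 0.0163). The mean of B26 and B118 minus that of B7, B44 and B53 was 0.87 ± 0.86 over 10 labels, above 0 in 9 (exact permutation p = 0.00586), while the same contrast for the whole block was 0.10 ± 0.21 (exact p = 0.166). This split of the baits was chosen with earlier results of these data known. B118 itself had a mean near 0 (0.02), so the positive side of the contrast rests on B26.

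When the libraries that share sites and both labelled G0 were left out, the difference grew to 1.12 ± 0.64 from B26 (above 0 in 7 of 7), to -0.91 ± 0.93 from B53 and to -0.40 ± 0.50 from B44. Over 7 libraries these no longer passed the exact permutation test after adjustment (adjusted p = 0.0781, 0.0781 and 0.130), and 0.0156 is the smallest unadjusted p that 7 libraries allow. The contrast of B26 and B118 with the other 3 baits was 1.22 ± 0.94 (n = 6, exact p = 0.0312). Without the 4 other pairs that share sites, the differences were 0.72 from B26 and -0.76 from B53 (n = 9 each) and -0.31 from B44 (n = 11), all past the exact test (adjusted p = 0.0195), while that contrast was 0.71 ± 0.85 (n = 6, exact p = 0.0938).

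**Figure D2:**
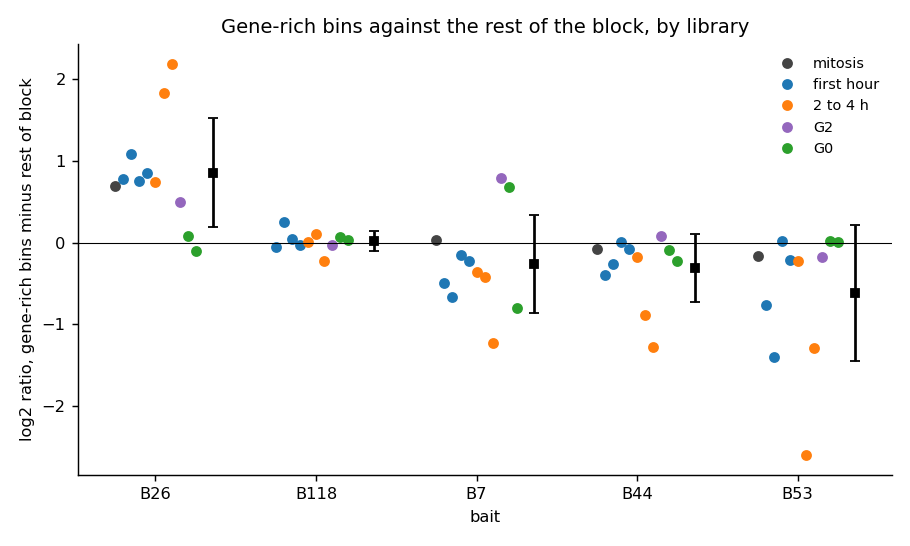
Log2 ratio of the 4 gene-rich bins minus that of the other 10 bins (y axis) per bait (x axis), 1 point per library coloured by label, with the mean and SD as a black square with bars. Libraries from B26 lie at 0.49 to 2.19 except both labelled G0 (-0.10 and 0.08), and those from B53 lie at -2.60 to 0.02.

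The bin profiles show where within the block each bait's contacts lay. From B26 the highest bins were chr8:87000001-87500000, with Klf1, Calr, Nfix and Dnase2a, and its neighbour chr8:86500001-87000000, with Il27ra and Rfx1, at 0.64 ± 0.53 and 0.64 ± 0.58, ranks 11 and 12 of 244 bins of the chromosome. The lowest was chr8:83500001-84000000, with Usp38 and the start of Inpp4b, at -0.83 ± 0.53. It was below 0 in 11 of 11 libraries, as was chr8:84500001-85000000 with Il15, so 2 of 14 bins of the block were below 0 in every library, against 18% of all bins from B26. None of the 14 was above 0 in every library (11.9% of all bins were): each gene-rich bin was above 0 in 9 of 11, and its 2 libraries below 0 carried the labels G0 or G2.

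From B53 the highest bin was chr8:89500001-90000000, which holds Cbln1, the gene of a synapse-organising protein, at its far end, at 0.46 ± 0.32 and above 0 in 11 of 11 libraries. It was the 1 bin of the block with that property, where 5.74% of all bins had it, and 0 of 14 were below 0 throughout (9.02% of all bins). The same bin was highest from B7, at 0.40 ± 0.63, rank 4 of 244. From B7 no bin of the block had 1 sign in every library, where 2.05% of all bins were above and 2.87% below 0 throughout. The lowest bins were chr8:86500001-87000000 from B53 (-0.79 ± 1.48) and chr8:87000001-87500000 from B7 (-0.56 ± 0.74), both in the gene-rich middle.

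From B44 the highest bin was chr8:89000001-89500000, with the peroxisomal protease gene Lonp2, the ubiquitin ligase gene Siah1a, N4bp1 and Abcc12. Its mean was 0.42 ± 0.20, rank 2 of 244, and it was above 0 in 11 of 11 libraries (8.2% of all bins from B44 were). The lowest from B44 by mean was chr8:87000001-87500000 at -0.49 ± 0.97, a value that rests on -3.16 in the 4 h library, and the next bin, with Junb, chr8:87500001-88000000, was below 0 in 11 of 11 at -0.42 ± 0.23 (8.61% of all bins were). From B118 chr8:89000001-89500000 was again the highest, at 0.31 ± 0.30. Its lowest was the Il15 bin at -0.37 ± 0.37, below 0 in 10 of 10 together with chr8:83500001-84000000 (2 of 14, against 11.1% of all bins), and 0 of 14 were above 0 throughout, against 7.38% of all bins. All these counts lie near the background of the chromosome.

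Across the 14 bins, the mean ratio rose and fell with the number of protein-coding genes from B26 (Spearman rho 0.90) and ran against it from B53 (-0.58) and B7 (-0.43), with -0.16 from B44 and 0.20 from B118. GC content and gene number move together along these neighbouring bins, and from B26 the rho with GC content was 0.85 and that with the number of HindIII sites -0.64. Using unique sites only, the values for gene number were 0.85, -0.67, -0.57, -0.50 and -0.01 in the same order of baits.

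**Figure D3:**
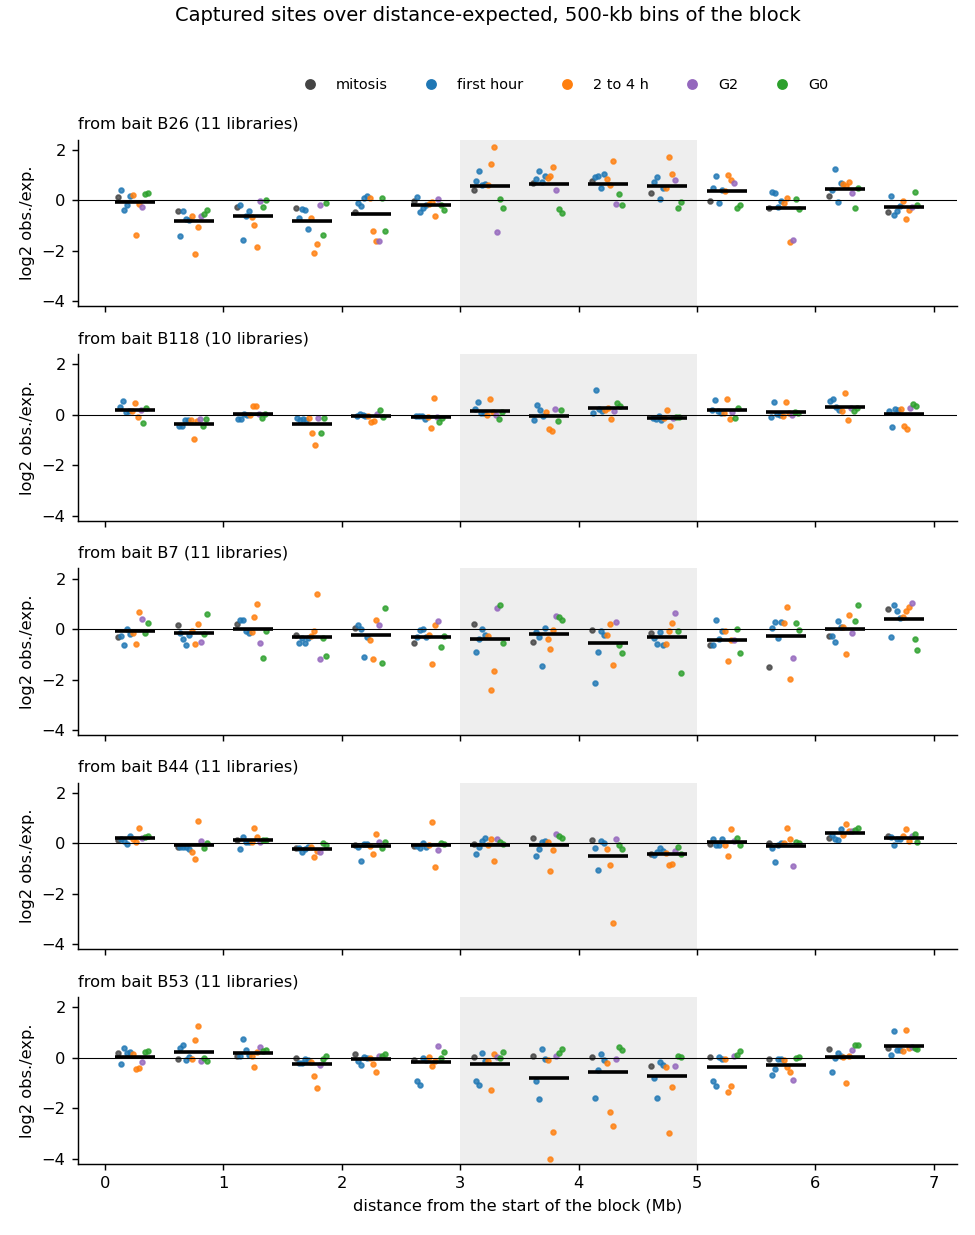
Log2 of observed over expected captured sites (y axis) in the 14 bins of 500 kb along the block (x axis, Mb from its start), from 5 baits, with points for libraries and bars for means; shading marks the 4 gene-rich bins. From B26 the shaded bins have means of 0.56 to 0.64, and from B53 their means lie between -0.79 and -0.26.

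The genes of the block were taken from a list by role, 38 of whose 39 names are annotated there. For each, the sites within the gene and 25 kb on either side were compared with their expected number. A gene has few sites (7 around Klf1, 12 around Junb), and neighbours share many of them, so these values locate a contact no better than about the bin it lies in. Of the 25 listed genes in the gene-rich middle, 23 had a mean ratio above 0 from B26, with a median of 0.47, and all 25 were below 0 from B53, with a median of -0.47. From B118 20 were above 0 (median 0.16), from B44 2 (-0.24) and from B7 1 (-0.44). Over all 38, 31 were above 0 from B26, where 63.5% of the chromosome's protein-coding genes were (median 0.20), and 29 from B118, where 55.3% were (median 0.06). The counts were 10 from B44, 3 from B7 and 2 from B53, against 34%, 18.9% and 17.7% of the chromosome's genes. All 99 protein-coding genes of the block lay nearer the chromosome's shares than the list did. Of these 99, 75.76% were above 0 from B26, 66.67% from B118, 29.29% from B44, 15.15% from B7 and 15.15% from B53. Medians over the chromosome's genes were -0.14 from B44, -0.32 from B7 and -0.34 from B53. From these baits a ratio below 0 was therefore common among genes and not particular to the block.

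Among transcription factor genes, Nfix, a nuclear factor I gene of muscle and brain development, had the highest ratio of the list from B26 (0.85) and one of the lowest from B53 (-0.75). Junb, whose product is a subunit of AP-1, had 0.60 from B26 and -0.68 from B53, and the erythroid factor gene Klf1 had 0.22 and -0.20. The immediate early gene Ier2 was 1 of the 2 genes of the middle below 0 from B26 (-0.06). Smarca5, an ISWI chromatin remodeller gene near the block's start, had -0.22 from B26 and -0.04 from B53.

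Among genes of nucleic acid enzymes and repair, Orc6, of the origin recognition complex, had 0.85 from B26 and -0.54 from B53. Rnaseh2a, the catalytic subunit of RNase H2, had 0.56 from B26 and the lowest value of the list from B7 (-1.05). Among trafficking genes, Vps35, of the retromer, had 0.84 from B26 and -0.56 from B53, and the nuclear import receptor gene Tnpo2 had 0.77 and -0.57. The folding gene Dnajb1, a co-chaperone of HSP70, had 0.78 and -0.30, and Calr, an endoplasmic reticulum chaperone gene, 0.39 and -0.39.

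Genes of the remaining roles also lay on both sides of 0 from B26. Lphn1, an adhesion receptor gene inside the middle, had the lowest ratio from B53 (-0.76) and was slightly below 0 from B26 (-0.08). Cacna1a, a calcium channel gene, had 0.24 from B26 and -0.58 from B53. Outside the middle, Il15, a cytokine gene in the AT-rich stretch, had -0.48 from B26, while Gpt2, a mitochondrial transaminase gene just beyond the upper border of the middle, had 0.72. N4bp1 had the highest value from B44 (0.59), Gab1, a signalling adaptor gene, the highest from B118 (0.67), and Cbln1 the highest from B53 (0.11). The brown fat uncoupling gene Ucp1 was within 0.1 of 0 from all 5 baits.

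Of the 2097 sites, 1785 were captured in at least 1 library of the 6 baits, near the share of chromosome 8 (33728 of 39480). The median site was captured in 16 of the 54 libraries of the outer baits, against 18 for chromosome 8. Of the 350 sites that no outer bait captured, 145 have both ends repeated among HindIII ends, against 2834 of 5953 on chromosome 8. Exonic, intronic and intergenic sites with a unique end were each captured in a median of 17 libraries. Sites captured in 1 to 9 libraries lay a median of 435 bp from the nearest DpnII site, 163 bp for 10 to 19 libraries and 123 bp for 20 or more, among sites with a unique end, while the 205 such sites captured in 0 libraries lay a median of 113 bp away. Distance to DpnII thus differed between these classes with no single order, and its part in the regional differences was not tested.

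No site of the block was captured in more than 32 of the 54 libraries. That site, printed above, lies 9866 bp upstream of Gipc1, a scaffold protein gene, and the outer baits captured it in 4 libraries from B7, 5 from B26, 7 from B44, 8 from B53 and 8 from B118. The other 9 of the first 10 were each captured in 30 libraries and from all 5 baits. They lie in an exon of Frem3, in introns of Cacna1a, Vps35 and Gab1, and in intergenic sequence near Frem3, Inpp4b, Zfp330, Ndufb7 and Abcc12. Bait B87 captured the Cacna1a and Vps35 sites in 10 of 10 libraries.

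The top site differed between baits. From B26 it was the site 3465 bp upstream of Hook2, a microtubule adaptor gene next to Junb, in 8 of 11 libraries, with 1 of 11 from B7 and 5 of 11 from B53. From B53 it was a site in an intron of Inpp4b, a phosphoinositide phosphatase gene, in 11 of 11 libraries, with 0 of 11 from B26 and 9 of 10 from B118. Baits B7 and B44 also had their top sites in introns of genes outside the middle, Inpp4b (7 of 11) and Gab1 (10 of 11), and B118 had the Lonp2 site in 10 of 10. Since each was picked as its bait's highest of 2097, these counts are descriptions with no test.

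Seen from the outer baits, no difference between labelled times in the ratio of the block, or in that of its gene-rich bins against the rest, passed the test. The ratio of the whole block, as a mean over the 5 baits, was 0.02 ± 0.08 in the 3 labels 2 h, 3 h and 4 h and -0.02 ± 0.06 in the 4 labels of the first hour (30 min and 1 h), a difference of 0.03 (exact permutation p = 0.571, where 0.0286 is the smallest possible). The difference of gene-rich bins from the rest was -0.25 ± 0.22 in 2 to 4 h and -0.05 ± 0.17 in the first hour (exact permutation p = 0.229). From B26 alone this difference was 0.72 higher in 2 to 4 h (exact permutation p = 0.171, adjusted p = 0.429 over 5 baits), and with capped reads 0.78 higher, at the smallest possible exact p of 0.0286 (adjusted p = 0.143). In G0 the mean over baits was -0.03 ± 0.26, against -0.25 ± 0.22 in 2 to 4 h, with p = 0.4 by exact permutation of 2 against 3 labels, which cannot go below 0.1. These means over baits hide opposite directions. From B26 the difference was -0.10 and 0.08 in G0, against 0.75, 1.84 and 2.19 in 2 to 4 h (exact permutation p = 0.2), and from B53 0.01 and 0.02 in G0, against -0.23, -2.60 and -1.29 in 2 to 4 h (exact p = 0.2). In neither bait do the labels overlap, but at both baits G0 replicate 1 shares sites with 2 h (30.1% and 53.1% of the smaller library on other chromosomes), and 3 h and 4 h are sparse; the part of either was not tested.

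Reads in single bins gave no calls either in the test used throughout. Tested by edgeR's quasi-likelihood method on reads per 500-kb bin, 0 of 70 values of the block (14 bins from 5 baits) passed for 2 to 4 h over the first hour, against 0% of 1461 over the 6 baits. At an unadjusted p under 0.05 there were 2 of 70, and DESeq2 called 0. Leaving out 2 h gave 3 of 70 and 30 in all. For G0 over 2 to 4 h edgeR also called 0 of 70, again against 0% of 1461, with 11 of 70 at an unadjusted p under 0.05. DESeq2 called 9 of 70 and 361 bins in all there, and edgeR with library read totals in place of TMM factors called 5 of 70 and 60 in all. On captured sites edgeR called 6 of 70 and 221 in all, so this count rests on the method. It also rests on single libraries, with 5 of 70 called without 1 h replicate 1 (146 in all) and 11 of 70 without 2 h (233 in all).

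Bait B87 looked at the block from within. The block held 39.9% to 78.9% of each library's reads on chromosome 8, and 7.62% to 34.7% of its captured sites, the highest shares of sites in the sparse libraries labelled 4 h (34.7%) and 3 h (24.6%). Near the bait nearly every site was captured. In the 100 kb upstream (lower coordinates), around Klf1, Calr and Gcdh, 94.0% ± 3.9 of 20 sites were captured (SD, n = 10 libraries), and in the 100 kb downstream, around Junb, Prdx2 and Rnaseh2a, 87% ± 3.5 of 20.

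Beyond the adjacent bins, the highest captured fraction was downstream at 100 to 200 kb, around Tnpo2, Asna1 and Man2b1, with 92.8% ± 4.9. The next were the upstream bins at 100 to 200 kb, with Nfix (91.2% ± 5.0), at 700 to 800 kb, with Cc2d1a, Podnl1 and Nanos3 (91.2% ± 12.5), at 200 to 300 kb, with Lyl1, Ier2 and Nacc1 (88.3% ± 15.3), and at 300 to 400 kb, within Cacna1a (87.3% ± 7.4). The bin at 700 to 800 kb was thus captured about as often as bins much nearer to the bait, with a lowest value of 58.8% in the 4 h library and a highest of 100%. By gene, captured shares were 97.1% around Klf1, 97.2% around Tnpo2, 96.3% around Lyl1 and 81.7% around Junb, the last in a range of 12 sites.

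Capture from B87 dropped at an upstream edge 1.4 Mb from the bait, at position 86034076. There the captured fraction of 3 bins of 100 kb inside stood furthest above that of the 3 bins outside, a step of 0.65 on the log2 scale in the mean over 10 libraries. The bin just inside, with Ndufb7, a respiratory complex I gene, Tecr, Dnajb1 and Olfr370, had 60.8% ± 26.0 of its sites captured, against 35.1% ± 20.9 in the bin just outside, with Scoc and Clgn, a testis chaperone gene. The next bin out, at 1500 to 1600 kb, had 56.4%, with a median of 75% against 72% in the bin just inside. Much of the drop between neighbouring bins thus lies in the 1 bin just outside. The edge lies just inside the lower border of the gene-rich middle. Taken in each library alone, the largest step lay 1200 to 1500 kb from the bait, at 1400 kb in 4 of 10 libraries.

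The step was largest in the libraries with the fewest captured sites on chromosome 8. Of the 3 libraries with the largest steps, 3 h (719854) and 4 h (266006) also had the fewest reads. The third, 30 min replicate 2, had 1876253 reads, more than 30 min replicate 1 (943564) and G2 (1448846). The part of read number was not tested. In the sparse libraries the 3 bins inside and outside had 58.1% and 8.65% at 30 min replicate 2, 45.2% and 5.77% at 3 h, and 30.7% and 7.69% at 4 h, steps of 2.59, 2.81 and 1.78. In the other 7 libraries, inside values of 75.8% to 85.5% stood beside outside values of 51.0% to 66.4%, steps of 0.26 to 0.64. Step sizes are not compared between labels for that reason.

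The downstream edge was weaker and less well placed. The largest step in the mean was 0.30, at 2.0 Mb, position 89434076, between a bin with N4bp1 (66.8% ± 32.3) and a gene-free bin (45.8% ± 29.2). Single libraries placed it at 1000 to 2100 kb, 3 of 10 at 2000 kb. It moved to 800 or 1000 kb, the stretch of Neto2, Itfg1 and Phkb, when any 1 of 30 min replicate 1, 30 min replicate 2, 4 h or G0 replicate 1 was left out. The G2 library had no step there (88.3% inside and 88.9% outside).

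**Figure D4:**
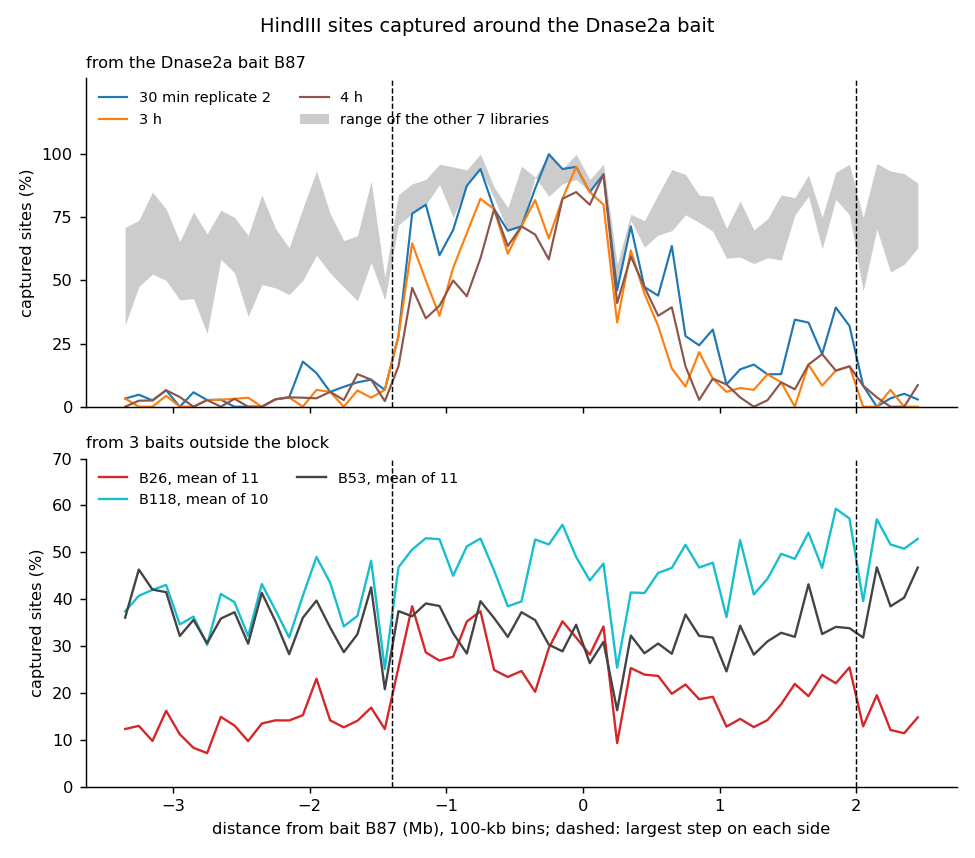
Share of HindIII sites captured (y axis, %) per 100-kb bin against distance from bait B87 (x axis, Mb): above, from B87 in the libraries labelled 30 min replicate 2, 3 h and 4 h, with the range of the other 7 in grey; below, means from B26, B118 and B53. Dashed lines mark the upstream (1.4 Mb) and downstream (2.0 Mb) edges, and at the upstream one the sparse libraries drop from 30.7% or more to 8.65% or less over 3 bins.

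The upstream edge, which was placed with B87 alone, was also a step in the capture of the 5 outer baits. From B26 the 3 bins inside had 30.1% of their sites captured and the 3 outside 14.1%, a step of 1.16 ± 0.74, above 0 in 10 of 11 libraries. B7 had a step of 0.62 ± 0.77 (10 of 11), B118 0.51 ± 0.33 (9 of 10), B44 0.43 ± 0.38 (10 of 11) and B53 0.22 ± 0.26 (9 of 11), all past the threshold (exact permutation tests, adjusted p = 0.0130 to 0.0244 over 5 baits and both edges). The bin just outside was low from every outer bait, with 2.42% from B7 and 20.8% from B53, against 9.42% and 42.5% in the next bin out. How far the sites of this bin make the step was not tested. Repeats differ across this edge, 11 of 45 sites of the bin outside having both ends repeated against 1 of 25 inside. With unique sites only, B26 (30.6% inside and 15.9% outside, adjusted p = 0.0195), B118 (step 0.41, adjusted p = 0.0195) and B7 (0.51, adjusted p = 0.0309) still passed, and B44 (0.30, adjusted p = 0.0558) and B53 (0.12, adjusted p = 0.208) no longer passed the exact test. B53 did not pass without the 1 h replicate 1 and G0 replicate 2 libraries either (0.18, adjusted p = 0.0977).

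At the downstream edge the outer baits had steps of both directions. Capture was higher inside from B26 (0.68 ± 0.75, 9 of 11 libraries, adjusted p = 0.0179) and from B118 (0.26 ± 0.37, 9 of 10, adjusted p = 0.0130), and lower inside from B53 (-0.43 ± 0.57, below 0 in 10 of 11, adjusted p = 0.0223; exact permutation tests). B7 (-0.14 ± 1.04) and B44 (0.11 ± 0.37) did not pass. Without the libraries labelled 1 h replicate 2 and 2 h, the B26 and B53 steps had adjusted p = 0.0614 and 0.0635 in the exact test, with sizes of 0.64 and -0.46. Without the 4 other pairs that share sites they were 0.42 and -0.49 (adjusted p = 0.0614 and 0.0521).

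Over 57 bins of 100 kb, from 3.4 Mb upstream to 2.5 Mb downstream of B87 without the 2 next to it, the mean capture profile of B26 was the most like that of B87 (Spearman rho 0.90), followed by B118 (0.72), B44 (0.33), B7 (0.19) and B53 (0.10). These are descriptions, since neighbouring bins share sequence properties and capture everywhere depends on the sites in a bin. With unique sites in the B87 profile the order was the same, from 0.86 for B26 to -0.06 for B53.

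From B87, upstream and downstream sequence at equal distance did not differ past the threshold over the main range, 50 kb to 2 Mb. The captured fraction upstream over that downstream was 0.16 ± 0.25 there on the log2 scale, above 0 in 9 of 10 libraries (exact permutation p = 0.0508). Capped reads gave 0.18 (above 0 in 3 of 10, exact p = 0.25) and uncapped reads 0.06 (5 of 10, exact p = 0.453). Between 50 kb and 1 Mb, an alternative range, the captured fraction gave 0.39 ± 0.30, above 0 in 10 of 10 (exact p = 0.00195, the smallest that 10 libraries allow). The 3 sparse libraries had 0.34, 0.71 and 0.46 out to 2 Mb, against -0.07 to 0.07 in the other 7. Unique sites gave 0.10 out to 2 Mb, above 0 in 4 of 10, and were not compared out to 1 Mb. Repeats are unequal there: at 200 to 300 kb, 31 of 39 sites downstream have a unique end, against 12 of 12 upstream.

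Close to B87, libraries labelled G0 had relatively fewer reads than those of 2 to 4 h. By edgeR's quasi-likelihood method on reads per 100-kb bin within 2 Mb, 8 of the 38 bins around B87 passed, all lower in G0, against 9.65% of 228 bins around the 6 baits called and 7.89% called lower. They lay between 750 kb upstream and 350 kb downstream, 5 upstream and 3 downstream, with log2 fold changes of -2.80 to -1.37. Those upstream lay over parts of Cacna1a and Nfix and, further out, around Ccdc130, Mri1 and Zswim4. Within 50 kb of the bait, sites held 7.5% and 8.56% of chromosome 8 reads in G0, against 27.1%, 30.1% and 26.5% in 2 h, 3 h and 4 h. These shares include the bait's own HindIII site, whose reads were not counted apart. The other labels spread from 11.5% in 1 h replicate 1 and 13.2% in G2 to 60.2% in 30 min replicate 2.

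The strongest was chr8:87484077-87584076, with Hook2, Prdx2 and Junb. It had 32941 and 56441 reads in G0 of 3644303 and 3770333 in the library, against 187240, 32668 and 14086 in 2 to 4 h of 3599724, 719854 and 266006. As a share of the library the 2 groups did not overlap. In reads scaled by TMM factors they did not overlap in most of the 38 bins, called or not, including bins higher in G0. The log2 fold change of this strongest bin was -2.80 ± 0.57 (SE, edgeR, adjusted p = 0.000642). With read totals as the scale the edgeR log2 fold change was -1.92 (adjusted p = 3.99e-06).

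The scale matters for the other bins. TMM factors were 1.43 to 1.50 in G0 and 0.762 to 0.819 in 2 to 4 h, which shifts the fold changes of these 8 bins by -0.886 against read totals. With read totals 2 of the 8 passed, and in all 4 bins around B87, 2 lower and 2 higher. On captured sites 0 bins passed in edgeR, with 0 at an unadjusted p under 0.05. Leaving out G0 replicate 1 or G0 replicate 2 left 0 bins called, leaving out 3 h left 1, leaving out 4 h left 4, leaving out 30 min replicate 1 or 1 h replicate 2 left 5, and leaving out 2 h gave 18, of which 11 were higher in G0. Without both libraries that share sites 11 were called, 7 of them higher in G0. For 2 to 4 h over the first hour, edgeR called 0 of 38 bins, against 0% of 228, with 0 of 38 at an unadjusted p under 0.05, and DESeq2 called 0.

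**Figure D5:**
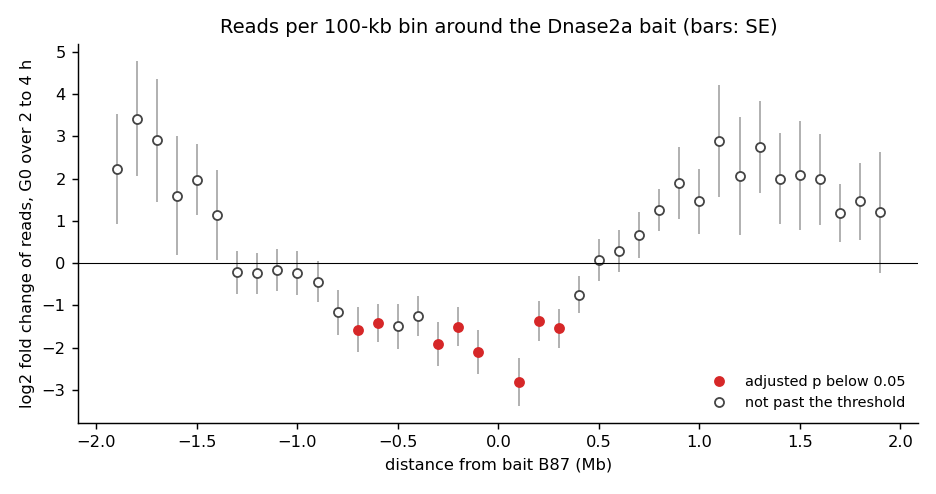
Log2 fold change of reads, G0 over 2 to 4 h (y axis, with SE), in 38 bins of 100 kb against distance from bait B87 (x axis, Mb); filled red points have an edgeR adjusted p under 0.05. The 8 red points, from -2.80 to -1.37, lie within 750 kb upstream and 350 kb downstream of the bait, and the median of all 38 bins is 0.47.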

How the data were processed

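The authors deposited a table of raw read counts per HindIII site and library; BWA 0.5.9 and mm9 are named in the submitters' processing notes, and further steps are not given in the sources used here. Of its columns, 70 were used and 39, of other chromosomes' baits or 1.5 h, were not. Technical replicates of 2 h were summed, giving 64 libraries. Genes came from GENCODE vM1.

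A site with 1 read or more was captured. Observed captured sites were set against HindIII sites times a lowess curve (span 0.5) of captured fraction on log10 distance over 500-kb bins more than 2 Mb from the bait. Single bins and genes had 0.5 site added. Baits were compared by exact two-sided sign-flip permutation over libraries, labels by exact permutation, with Benjamini-Hochberg adjustment and a threshold of 0.05. Reads per bin were tested with edgeR 4.0.16 (TMM, 1 fit per bait over all labels, adjusted over 6 baits), with DESeq2 1.42.0 as alternative, in R 4.3.3. Python 3.11.15 with scipy 1.17.1 and statsmodels 0.14.6 did the rest. Scripts were tested on simulated data.

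The block, windows, gene list and the split of B26 and B118 from the other baits were chosen with earlier results of these data known. Named were each bait's highest and lowest bin, the 10 sites captured in most libraries and each bait's top site, the highest bins and edges of B87, and listed genes. Gene-rich bins, edges seen from other baits, unique ends, capture rate and the omission of libraries labelled G0 and of other pairs that share sites were chosen after seeing the data. Same-numbered replicates of 30 min, 1 h and G0 deviated together with correlations of -0.505 to 0.43, so numbers were not taken as pairs. Intervals were not computed, and PCR reads carry counting error beyond that of captured sites.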

Additional observations from a re-analysis of the deposited data

Results flagged for a closer look

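In bait B87, the library labelled 30 min replicate 2 stood apart from the other 3 of the first hour at both edges. Its upstream step was 2.59 on the log2 scale, against 0.26 to 0.64 in the others, and its downstream step 2.505, against 0.06 to 0.39. Its gap to the nearest library, as a share of the range, passed Dixon's critical value for 4 samples at each edge. It captured 2888 sites on chromosome 8. In all 18 sets were checked, and chance flags about 1 in 20 groups.

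The difference of the gene-rich bins from the rest of the block differed between baits in 6 of 10 pairs, each tested over libraries of the same label. It was -1.12 for B7 minus B26 (means -0.26 and 0.86), 1.17 for B26 minus B44 (0.86 and -0.31), and 1.47 for B26 minus B53 (0.86 and -0.62). It was 0.85 for B26 minus B118 (0.87 and 0.02), -0.35 for B44 minus B118 (-0.33 and 0.02), and -0.68 for B53 minus B118 (-0.66 and 0.02). The sparse libraries had the largest values from B26 and B53, and both labelled G0 had values near 0; their part was not tested.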

How the results depend on the processing

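The upstream edge of B87 stayed at 1400 kb under all alternatives except 50-kb bins (1350 kb), and block minus flanks from B26 and block minus Upf1 window from B7, B44 and B53 kept direction and call under every alternative run; the causes of the changes below were not tested. Block contact turned negative from B44 with capped reads (-0.0458), uncapped reads (-0.0701), an expected number per bin (-0.0641), the inner 5 Mb (-0.0794, adjusted p = 0.0464) and without the libraries that share sites and both labelled G0 (-0.00875). From B118 it did with capped (-0.0325) and uncapped reads (-0.0312), per bin (-0.0483) and a span of 0.3 (-0.00512). The inner 5 Mb gave calls of -0.167 from B7 and 0.251 for B26 and B118 minus the others, -0.00287 for 2 to 4 h minus the first hour and 0.185, with the call lost, against the Ctcf window from B53. G0 minus 2 to 4 h was 0.0234 with a span of 0.3 and 0.00665 with technical replicate 2 of 2 h alone.

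Block minus flanks from B118 was -0.153 per bin, a call gained, 0.0190 over sites ever captured, 0.00431 with a curve fitted without the block, 0.00308 thinned, 0.0232 with unique sites, 0.0105 without the 2 libraries that share sites and 0.0395 without G0 too. From B44 it lost its call over sites ever captured (-0.0466), without the block in the curve (-0.0722), with unique sites (-0.0587), without the sharing libraries (-0.0762) and without G0 too (-0.0746), and from B53 with a span of 0.3 (-0.142). Against the Upf1 window, B118 gained a call at 0.410 and 0.411 with capped and uncapped reads, 0.225 with 3 reads or more, 0.409 per bin, 0.202 without the block in the curve, and 0.240 as capture rate, and had -0.0433 over sites ever captured; B26 had 0.0565 per bin, and passed at -0.425 over sites ever captured and -0.318 with unique sites. Against the Ctcf window, B44 gained calls at 0.239 (capped), 0.174 (ever captured) and 0.218 (thinned) and B118 at -0.162 (per bin) and -0.104 (span 0.3), while B118 had 0.00397 uncapped. There B53 lost its call at 0.350 without the sharing libraries and 0.400 without G0 too, and B26 at -0.412.

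The gene-rich difference from B118 was -0.217 capped, -0.214 uncapped, -0.0166 with 3 reads, -0.398 per bin, -0.0540 over sites ever captured and -0.0180 with unique sites. B7 gained calls at -0.683 per bin and -0.608 thinned. Calls were lost by B26 at 0.431 per bin, B44 at -0.267 thinned, B53 at -0.706 without the sharing libraries, and without G0 too by B26 (1.12), B44 (-0.403) and B53 (-0.912). Upstream steps lost their call at B44 (0.296 unique, 0.400 without the sharing libraries) and B53 (0.116 unique, 0.180 with technical replicate 2, 0.256 without them), and downstream ones at B26 (0.639) and B53 (-0.464) without them. Without the 4 other pairs that share sites, calls were lost against the Ctcf window from B53 (0.371), for the gene-rich contrast of B26 and B118 with the others (0.710), for the upstream step at B53 (0.176) and the downstream steps at B26 (0.416) and B53 (-0.489), and block minus flanks and the downstream step turned to 0.0272 and 0.0295 from B7. The downstream edge was 800 kb with 5 bins on each side, and the side difference 0.386 to 1 Mb. Of 70 far bins, G0 over 2 to 4 h gave 9 (DESeq2), 5 (read totals), 6 (captured sites), 4 (without the sharing libraries) and 5 (technical replicate 2). Over the 6 baits it gave 361, 60, 221, 120 and 123 in the same order. For 2 to 4 h over the first hour 1 of 70 was called without the sharing libraries, and 2 over the 6 baits. Near B87, G0 over 2 to 4 h gave 14 (DESeq2), 4 (read totals) and 0 (captured sites), and around the 6 baits 44, 17 and 0.

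Leaving out 1 library at a time gave -0.0936 to -0.0570 for flanks from B44, -0.104 to 0.0180 from B7 and -0.0465 to 0.0209 from B118. It gave 0.317 to 0.431 and 0.121 to 0.182 against the Ctcf window from B53 and B44, 0.147 to 0.232 against the Upf1 window from B118, and -0.00800 to 0.0447 for the gene-rich difference from B118. Block contact ranged from -0.00988 to 0.0628 for 2 to 4 h minus the first hour and -0.0494 to 0.0233 for G0 minus 2 to 4 h. By bait, the gene-rich difference between labels ranged from -0.159 to 0.00442 at B118 for 2 to 4 h, and for G0 from -0.00732 to 0.156 at B118 and -0.134 to 1.35 at B7. The downstream edge ranged from 800 to 2000 kb, the side difference from 0.100 to 0.186, far calls from 0 to 3 and 0 to 11, and near G0 calls from 0 to 18. With the replicate number as a replicate block, 0 far bins were called in both comparisons, and near B87 9 for G0 and 0 for 2 to 4 h. Sparse libraries captured as few as 1018 sites on chromosome 8, which limits single bins and sites.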
